A study of Mus musculus with 2 samples.

Results

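Interferon-stimulated genes are the genes that a cell switches on when interferon binds its surface, and 37 of them were followed here among the 20451 genes measured in thymic leukocytes of wild-type and Mgl2DTR mice. The list is set by gene name, and its rule uses no measured value: 33 genes of the type I response and 4 interferon-gamma-inducible GTPases, Irgm1, Igtp, Gbp2 and Gbp3. Counts were available for 36 of the 37, which are 32 type I genes and the 4 GTPases, and Mx1 was not analysed here. Ifi47 stands among the type I genes in this list although it encodes a GTPase of the same family as Irgm1 and Igtp. Some members have close copies in the genome (Ifit3 and Ifit3b, Phf11b with Phf11a and Phf11d, the Ifi203, Ifi204 and Ifi205 group, the Oas and Gbp genes), and how reads were divided between such copies is uncertain.

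Type I interferons act through the receptor IFNAR, whose kinases JAK1 and TYK2 phosphorylate signalling factors such as STAT2. A complex that holds STAT2 and IRF9 binds the interferon-stimulated response element in promoters. Interferon-gamma, made mainly by NK cells and T cells, acts through another receptor, and its signal reaches promoters at the GAS element. In the thymus, interferon genes and their targets are known to be active without infection, and dendritic cells, macrophages and developing T cells there carry receptors for them.

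The cells came from thymus of 7-week-old mice of 2 genotypes, labelled B6WT (WT) and Mgl2DTR_eGFP (Mgl2DTR). The latter name joins Mgl2, a lectin gene of type 2 conventional dendritic cells and some macrophages, to the receptor for diphtheria toxin and to eGFP, so that toxin kills the cells that make the receptor. A dose of 500 ng toxin and a time of 48 h are stated, and the labels do not say whether WT mice were given it. Thymus was digested with collagenase D, depleted of CD90.2 cells and sorted on CD11c and CD11b, integrin chains that dendritic and myeloid cells carry. Cells of both genotypes were run together and told apart by a hashtag. No animals were named, so each genotype is 1 library with no replicate, no p-value can be given, and a difference between genotypes cannot be told apart from a difference between these 2 preparations.

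WT was the only hashtag of 11586 cells, which held 116719748 UMIs with a median of 7820 each. Mgl2DTR was the only hashtag of 7433 cells, with 71521759 UMIs and a median of 6930. Mgl2 itself was at 109 CPM (UMIs per 1000000 UMIs) in WT cells and 17.9 CPM in Mgl2DTR cells. Cells were clustered without the interferon genes, so that the clusters were not built from the genes described, and 16 clusters with at least 50 cells of each genotype could be named from marker genes and compared. Clusters that were left unnamed held 19.0% of WT and 17.99% of Mgl2DTR cells. T cell-like, B cell-like and NK or innate lymphoid-like clusters were present among the sorted cells. Within a cluster, UMIs of a gene were summed per genotype and divided by all UMIs of that cluster and genotype. Intervals are exact 95% intervals and cover counting error only. A gene was called higher or lower in Mgl2DTR by size alone, with at least 50 summed UMIs, a ratio of at least 1.5 either way and its whole interval on that side of 1.

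The promoters of the members are shown first, to see which of them carry the core of the response element. RefSeq promoter windows of 300 bases (build GRCm38.p6, 250 bases before to 50 after the start site, which is counted as 0) matched 29 of the 37 members, and Mx1, Usp18, Ifi27l2a, Zbp1, Rtp4, Dhx58, Parp14 and Ifi204 had no entry. The core of the response element was searched on both strands as GAAA, any 2 bases and GAAA again, a run of 10 bases. The capitals mark its matches in the promoters of Isg15, 3 IFIT genes and the GTPase gene Gbp2, shown as examples of members that have a match. Those windows lie at chr4:156200769-156201068 on the minus strand for Isg15, chr19:34640639-34640938 for Ifit1, chr19:34583279-34583578 for Ifit3, chr19:34607707-34608006 for Ifit3b and chr3:142620413-142620712 for Gbp2, these 4 on the plus strand.
Isg15: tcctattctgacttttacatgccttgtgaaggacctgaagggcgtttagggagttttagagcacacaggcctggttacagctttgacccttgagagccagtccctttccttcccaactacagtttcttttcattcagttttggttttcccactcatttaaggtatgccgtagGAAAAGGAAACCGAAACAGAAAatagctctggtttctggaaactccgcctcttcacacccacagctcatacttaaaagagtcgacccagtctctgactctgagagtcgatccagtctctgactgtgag
Ifit1: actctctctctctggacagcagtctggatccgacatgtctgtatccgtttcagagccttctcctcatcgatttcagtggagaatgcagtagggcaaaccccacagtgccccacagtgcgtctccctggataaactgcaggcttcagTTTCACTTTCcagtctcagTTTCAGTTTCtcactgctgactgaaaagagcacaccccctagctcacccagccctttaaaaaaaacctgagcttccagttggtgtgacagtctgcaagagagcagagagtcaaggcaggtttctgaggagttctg
Ifit3: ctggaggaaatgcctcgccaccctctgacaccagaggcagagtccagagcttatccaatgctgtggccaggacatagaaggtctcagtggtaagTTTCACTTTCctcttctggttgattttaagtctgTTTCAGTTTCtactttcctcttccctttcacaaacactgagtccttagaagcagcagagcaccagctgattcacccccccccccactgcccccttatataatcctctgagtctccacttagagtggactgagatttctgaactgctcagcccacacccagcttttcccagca
Ifit3b: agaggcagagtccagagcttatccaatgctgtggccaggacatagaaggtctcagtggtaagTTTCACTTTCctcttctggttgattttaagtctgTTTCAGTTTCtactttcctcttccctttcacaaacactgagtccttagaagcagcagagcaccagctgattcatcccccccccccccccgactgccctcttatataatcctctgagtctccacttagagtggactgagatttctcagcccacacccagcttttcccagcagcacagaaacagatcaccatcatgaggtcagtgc
Gbp2: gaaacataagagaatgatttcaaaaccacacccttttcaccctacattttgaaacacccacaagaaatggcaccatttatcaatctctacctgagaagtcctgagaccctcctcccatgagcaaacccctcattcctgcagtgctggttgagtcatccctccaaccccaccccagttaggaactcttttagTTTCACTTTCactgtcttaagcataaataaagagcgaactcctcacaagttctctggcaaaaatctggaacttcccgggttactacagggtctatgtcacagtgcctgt

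In the Isg15 promoter 3 overlapping matches lay between 78 and 57 bases before the start. Ifit1 had 2 separate matches, at 104 to 95 and 85 to 76 bases before the start, where the printed strand reads as the reverse complement, TTTCACTTTC and TTTCAGTTTC. Ifit3 and Ifit3b carried the same 2 runs of letters in the same order, and their windows shared an unbroken run of 169 bases, against 13 between Ifit3 and Ifit1. Gbp2 had 1 match, at 59 to 50 bases before its start.

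This core was in a promoter of 18 of the 29 members (62.1%), 14 of 25 type I genes and 4 of 4 GTPases, against 3.99% of 27025 genes with a promoter of the same length. The 11 members with a window and no match were Ifit2, Xaf1, Herc6, Oasl1, Oasl2, Epsti1, Cmpk2, Sp100, Ifi44, Ifi47 and Irf7, and some of these are among the members called most often below. With a C required after the second GAAA the shares were 48.3% of members and 0.944% of all genes. The GAS letters TTCNNNGAA, searched on both strands, were in 4 of 29 members (13.8%), which are Oas1a, Bst2, Igtp and Ifit2, against 9.55% of all genes. In Bst2 the GAS match overlapped a response-element match. There were 29 response-element matches in all, and 15 members had at least 1 that ended within 150 bases before the start, as the plot of motif positions shows. A match is a run of letters and not a measured binding site.

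**Figure D1:**
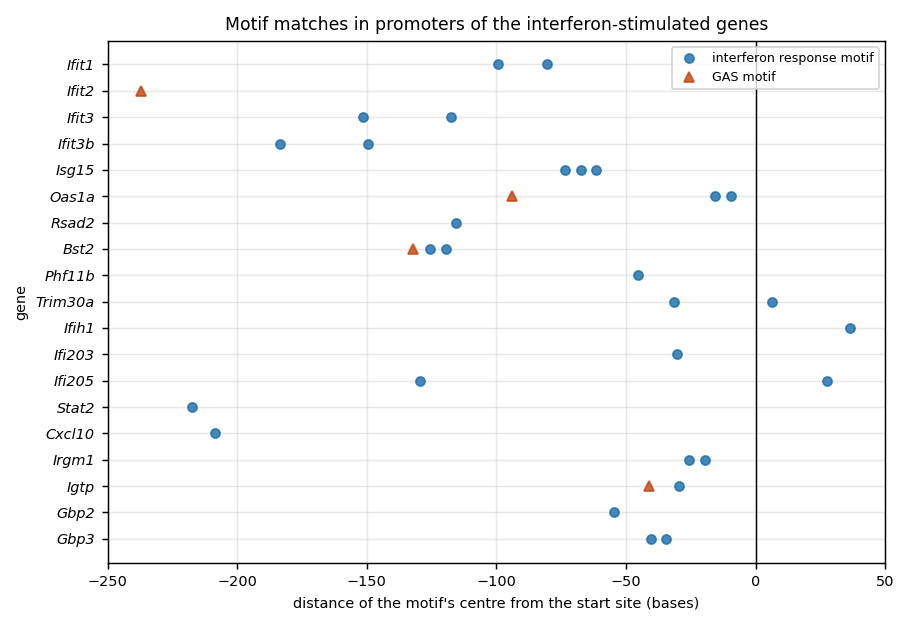
Motif matches in the promoters of the members that have any, by distance of the match's centre from the transcription start site in bases (0 is the start; negative values lie before it). Circles are matches to the response-element core on either strand and triangles are GAS matches (TTCNNNGAA). Most circles lie in the 150 bases before the start.

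In WT cells the members did not share a single pattern over the clusters. The largest number had their highest level in neutrophil-like cluster 11 (10 members), then in monocyte-like cluster 8 (7 members), macrophage-like cluster 7 (4 members) and the neutrophil-like cluster 26 and activated DC-like cluster 6 (3 members each). Cluster 11 was led by neutrophil genes of inflammation such as Cxcl2 and Il1b, cluster 26 by granule genes such as Ltf and Mmp8, and a further neutrophil-like cluster, 17, by genes of immature neutrophils such as Elane and Mpo. Cluster 11 held 108 WT cells with a median of 1668.5 UMIs each, so its levels rest on few UMIs. The WT cell there with most UMIs of a gene gave 59.3% of them for Ifit3b and 31.0% for Ifit2. For Isg15 that share was 13.8% and for Oasl2 6.85%. Levels are compared below for 1 gene at a time, since they are not scaled by gene length. The 16 levels of each member in WT cells are drawn in the plot of levels by cluster.

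**Figure D2:**
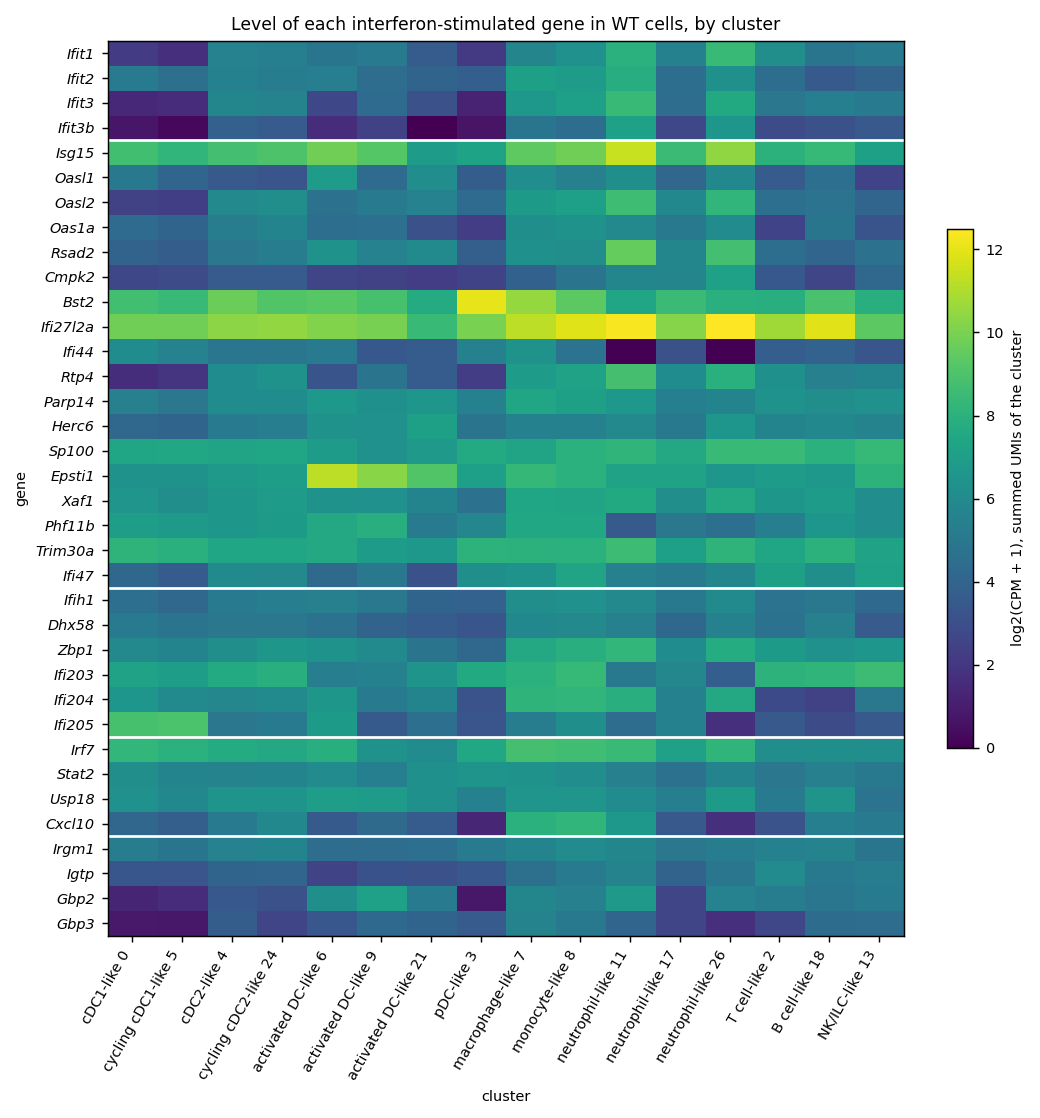
Level of each of the 36 members in WT cells, as log2(CPM + 1) of the UMIs summed over each of the 16 compared clusters, with white lines between IFIT genes, other effectors, nucleic acid sensors and DNA-binding proteins, factors with feedback and chemokine, and GTPases. Ifit1, Ifit3 and Rtp4 are dark in cDC1-like and pDC-like clusters and bright in neutrophil-like clusters 11 and 26, whereas Bst2 peaks in pDC-like cells and Epsti1 in activated DC-like cells.

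The IFIT proteins bind foreign RNA and block its translation. Ifit1 was at 348 CPM (311 to 389) in neutrophil-like cluster 26 and 249 CPM in cluster 11, 71.4 CPM in T cell-like and 44.9 CPM in cDC2-like cells, but 3.47 CPM in cDC1-like and 3.37 CPM in pDC-like cells. Ifit3 ran from 344 CPM (266 to 438) in cluster 11 and 131 CPM in monocyte-like cells down to 1.62 CPM in cDC1-like and 1.31 CPM (0.528 to 2.70) in pDC-like cells. Ifit2 differed from these 2 in cDC1-like cells, where it stood at 36.3 CPM against 44.6 CPM in cDC2-like cells. The intervals of cDC1-like and pDC-like cells overlapped for Ifit1 and for Ifit3, so these neighbours at the low end cannot be ordered.

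Isg15 encodes a ubiquitin-like protein that is attached to other proteins and also secreted. It was at 2763 CPM (2531 to 3010) in neutrophil-like cluster 11, 1400 CPM in cluster 26, 901 CPM in activated DC-like cluster 6 and 878 CPM (836 to 923) in monocyte-like cells. Cells of the cDC1-like cluster had 417 CPM of Isg15, close to the 434 CPM of cDC2-like cells, although their Ifit1 level was far lower. The lowest levels were 153 CPM in pDC-like, 135 CPM in NK or innate lymphoid-like and 114 CPM in activated DC-like cluster 21, a shallow cluster with a median of 1214 UMIs per WT cell.

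Antiviral enzymes and related effectors followed the IFIT genes in part. Rsad2, which encodes viperin, reached 741 CPM in neutrophil-like cluster 11 and 437 CPM in cluster 26, and its lowest level was 11.9 CPM in cycling cDC1-like cells. Oasl2, of the oligoadenylate synthetase family, ran from 386 CPM in cluster 11 to 3.92 CPM in cycling cDC1-like cells, and Rtp4, which encodes a receptor transporter protein, from 445 CPM in cluster 11 to 2.08 CPM in cDC1-like cells. Over the 16 clusters in WT cells the levels of Ifit1 and Rtp4 had a Spearman correlation of 0.96, Ifit3 and Ifit3b also 0.96, and Ifit1 and Ifit3 0.90, given as a description of points that share a library.

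Other effectors were highest elsewhere. Bst2, the tetherin that holds virus particles at the cell surface and is also a pDC marker, was at 4178 CPM (4124 to 4234) in pDC-like cells and 169 CPM in cluster 11. Epsti1 was at 2426 CPM in activated DC-like cluster 6 and 1238 CPM in activated DC-like cluster 9, against 84.8 CPM in cDC1-like and 105 CPM in cDC2-like cells. Ifi27l2a, which encodes a small membrane protein, was the member with the most UMIs in all, at 5808 CPM in cluster 26 and 3972 CPM in B cell-like cells, and 883 CPM in cycling cDC1-like cells.

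Nucleic acid sensors and DNA-binding proteins split by lineage. Ifih1 and Dhx58, the cytoplasmic RNA sensors MDA5 and LGP2, were highest in monocyte-like cells at 79.6 and 58.1 CPM and lowest in pDC-like cells at 14.2 and 9.0 CPM. Ifi205 was at 470 CPM (461 to 479) in cDC1-like and 490.5 CPM in cycling cDC1-like cells against 30.5 CPM in cDC2-like cells, whereas its relative Ifi203 was highest in NK or innate lymphoid-like cells (381 CPM) and its relative Ifi204 in monocyte-like cells (299 CPM). Ifi205 was thus high in cDC1-like cells, which were among the lowest clusters for Ifit1, Ifit3 and Rtp4.

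Irf7, the transcription factor that drives interferon production, was at 445 CPM in macrophage-like, 409 CPM in monocyte-like, 310 CPM in cDC1-like and 180 CPM in pDC-like cells. Stat2, which encodes a subunit of the complex that binds the response element, ran from 88.5 CPM in pDC-like cells to 24.9 CPM in cluster 17. Cxcl10, the chemokine that draws CXCR3-carrying lymphocytes, was at 300.2 CPM in monocyte-like and 255 CPM in macrophage-like cells and at 1.5 CPM in pDC-like cells. No UMI of Ifi44 was found in WT cells of neutrophil-like cluster 26, where the interval reaches up to 4.14 CPM, while Ifi44 was at 85.3 CPM in macrophage-like cells.

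The 4 GTPases, which act on membranes of vacuoles that hold microbes, each peaked in a different cluster. Gbp2 was at 143 CPM in activated DC-like cluster 9 and 0.750 CPM in pDC-like cells, Igtp at 65.1 CPM in T cell-like cells, Irgm1 at 65.2 CPM in monocyte-like cells and Gbp3 at 47.4 CPM in macrophage-like cells. The lowest level of Irgm1 was 20.9 CPM and that of Igtp 4.97 CPM, both in activated DC-like cluster 6.

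To see whether IFIT transcripts lay in many cells or few, each cell was thinned to 2000 UMIs and shallower cells were left out. At this depth 60% of WT cells of neutrophil-like cluster 26 held a UMI of Ifit1, Ifit2, Ifit3 or Ifit3b, 35.4% (31.1 to 39.8) of macrophage-like, 26.5% (21.4 to 32.2) of monocyte-like, 16.5% of cDC2-like, 7.83% of cDC1-like and 2.86% (1.84 to 4.22) of pDC-like cells. IFIT UMIs were commoner in the cells that also held Isg15. In cDC2-like cells 42.9% (37.4 to 48.6) of WT cells with an Isg15 UMI held an IFIT UMI, against 4.43% (3.03 to 6.24) of those without. In monocyte-like WT cells the shares were 48.1% and 5.71%, in macrophage-like cells 51.4% and 18.8%, and in cDC1-like cells 14.7% and 3.37%. In pDC-like cells, the cluster with the lowest share, they were 11.1% and 1.52%. Free RNA in droplets can give a UMI to any cell, and its part in these shares was not tested.

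**Figure D3:**
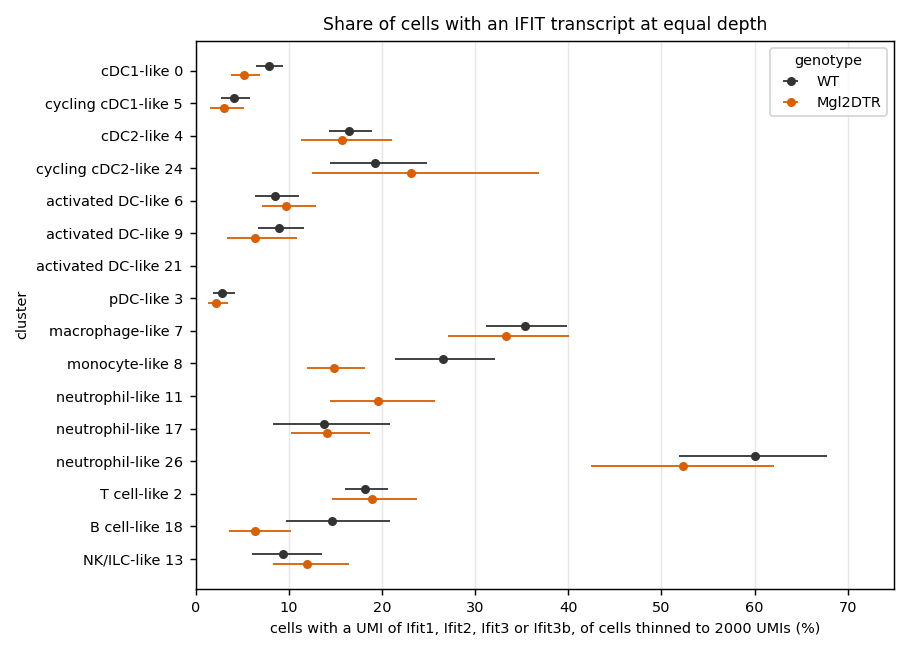
Percent of cells with at least 1 UMI of Ifit1, Ifit2, Ifit3 or Ifit3b after each cell was thinned to 2000 UMIs, by cluster and genotype, with exact 95% intervals; a genotype with under 50 cells of that depth has no point. The shares run from 2.17% of Mgl2DTR pDC-like cells to 60% of WT cells in neutrophil-like cluster 26, and the intervals of the genotypes lie apart in monocyte-like cluster 8.

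The spread of the summed type I count between cells was measured at the same depth as the squared coefficient of variation in excess of counting noise. It was lowest in pDC-like cells, at 0.173 in WT and 0.120 in Mgl2DTR. In cDC2-like cells it was 0.897 and 0.742. Monocyte-like cells had 0.720 in WT and 0.332 in Mgl2DTR, and the 10th and 90th percentile cells held 3 and 41 type I UMIs in WT against 6 and 30 in Mgl2DTR. The monocyte-like medians were 15 and 16 UMIs, so the ends of the range differed more than its middle. In neutrophil-like cluster 17 the order was the other way, 0.736 in WT and 1.30 in Mgl2DTR. A summed count follows the members of most UMIs. In WT pDC-like cells these were Bst2, also a pDC marker, with 22285 UMIs and then Ifi27l2a with 5332. In WT monocyte-like cells they were Ifi27l2a with 6889 and then Isg15 with 1589. The spread without these members was not measured.

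The comparison of genotypes sets cells of Mgl2DTR thymus, 48 h after toxin, beside WT cells. Over all cells of a genotype the 32 type I genes together were at 4929 CPM (WT) and 4828 CPM (Mgl2DTR), a ratio of 0.980 (0.976 to 0.984). The 4 IFIT genes were at 97.0 and 76.1 CPM, a ratio of 0.784 (0.759 to 0.810), and Isg15 at 437 and 355 CPM. Weighted to the WT make-up of clusters, the ratios were 0.992 for the type I genes, 0.834 for the IFIT genes and 0.858 for Isg15. The IFIT genes and Isg15 were thus lower by less than 1.5 times, and the summed type I level was nearly equal. Single members lay on both sides of 1 over all cells. Cmpk2 was at 1.30, Ifi203 at 1.22 and Cxcl10 at 1.20, and at 0.859, 1.15 and 1.37 when weighted.

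By cluster, 434 of 512 pairs of a type I gene and a cluster had 50 summed UMIs and could be called, and only Bst2, Ifi27l2a, Sp100 and Epsti1 could be called in all 16 clusters. There were 64 calls lower (14.7% of the pairs) and 18 calls higher (4.15%) in Mgl2DTR. Over all genes 3.64% of 110543 such pairs were lower and 4.18% higher, so that the share of higher calls among the type I genes was near that of all genes. Without the 1 cell that held most UMIs of the gene in the genotype where it was higher, an alternative chosen after seeing the data, 47 of the 64 lower and 7 of the 18 higher calls stood. Of the 64 lower calls, 51 were in the monocyte-like cluster and the neutrophil-like clusters 11, 17 and 26, and 13 in the other 12 clusters. Lower calls over all genes were also commoner than 3.64% in these 4 clusters, at 7.46%, 10.1%, 7.41% and 11.9% in turn. Of the 18 higher calls, 10 were in cycling cDC2-like cluster 24, where 4.36% of all measured genes were higher. Among the 32 type I genes 18 were called lower only, 2 higher only (Trim30a and Ifi203), 10 both ways in different clusters and 2 never (Oas1a and Cmpk2). The shares of all genes with these patterns were not counted, so these numbers have no background to be read against. Isg15 was lower in 4 clusters and its ratio was below 1 in 14 of 15. Ifit1 was lower in 6 clusters and higher in 1.

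**Figure D4:**
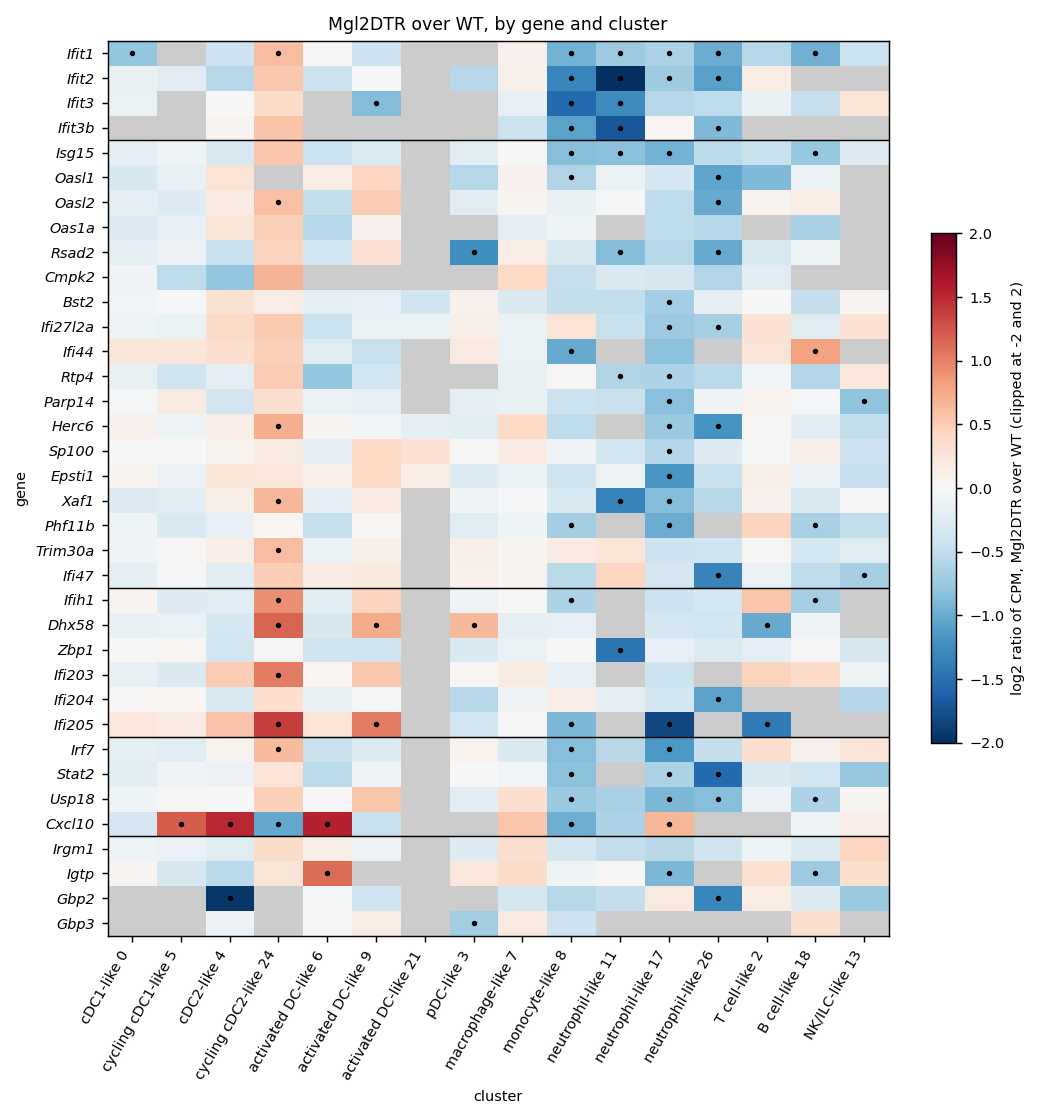
Log2 ratio of CPM in Mgl2DTR over WT for each member (vertical) and compared cluster (horizontal), clipped at -2 and 2, with dots on the called pairs and grey where under 50 UMIs were summed. Blue squares with dots gather in monocyte-like cluster 8 and neutrophil-like clusters 11, 17 and 26, and red squares with dots in cycling cDC2-like cluster 24.

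In monocyte-like cluster 8 (291 WT and 564 Mgl2DTR cells) 14 of 32 type I genes were lower in Mgl2DTR and 0 higher, where 7.46% of all 7690 genes measured in this cluster were lower and 9.39% higher. The median log2 ratio was -0.49 for the 32 genes and 0.05 for all genes. Ifit3 was at 131 CPM (115 to 149) in WT and 44.7 CPM in Mgl2DTR, a ratio of 0.341 (0.282 to 0.412). Ifit2 was at 114 and 46.1 CPM, a ratio of 0.405 (0.333 to 0.492), and Ifit1 at 79.6 and 41.3 CPM, a ratio of 0.519. All 4 IFIT genes were lower, and the 4 together stood at 346 CPM (WT) and 142 CPM (Mgl2DTR) (0.411, 0.368 to 0.459).

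Isg15 in these monocyte-like cells was at 878 CPM (WT) and 487 CPM (Mgl2DTR), a ratio of 0.554 (0.520 to 0.591), and Usp18, the protease that removes ISG15 and damps the receptor, at 89.6 and 53.7 CPM. The factors Irf7 (409 and 226 CPM, ratio 0.554) and Stat2 (68.6 and 39.0 CPM, ratio 0.569) were lower as well. The further members called lower were Cxcl10 (300.2 and 153 CPM), Ifi205, Ifi44, Ifih1, Phf11b, Oasl1 and Ifit3b. Ifi27l2a, Trim30a, Ifi204 and Rtp4 had ratios above 1 in this cluster, none of them called. Ifi27l2a was at 3809 CPM (WT) and 4541 CPM (Mgl2DTR), and with this member of most UMIs included the summed type I level was 9570.1 and 8758 CPM, a ratio of only 0.915. The share of thinned cells with an IFIT UMI was 26.5% in WT and 14.9% (11.9 to 18.2) in Mgl2DTR.

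The monocyte-like cells of the genotypes also differed in other genes, and the part of these in the result was not tested. Of 12 monocyte markers 6 were higher in Mgl2DTR, among them Arg1 (1.66 and 531 CPM), Vcan (37.0 and 415 CPM) and Chil3 (164 and 538 CPM), and Pf4 was at 5.53 and 689 CPM. Neutrophil markers were higher for 8 of 11 measured (sum 518 and 1837 CPM), and T cell markers lower for 7 of 7 (sum 325 and 82.6 CPM). Median depth was 5454 and 8244.5 UMIs per cell. When cells with over 0.1% of UMIs from markers of another class were left out, 5 type I genes were lower and 1 higher, and Cxcl10 turned to a ratio of 2.08. Ifit1, Ifit2, Ifit3, Irf7 and Stat2 kept their call in every alternative that could be fitted for this cluster.

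In neutrophil-like cluster 26, the granule-gene cluster (171 WT and 109 Mgl2DTR cells), 12 of 27 measured type I genes were lower and 0 higher, where 11.9% of all measured genes were lower and 4.05% higher. The median log2 ratio was -0.57 against -0.14 for all genes. Rsad2 was at 437 CPM (WT) and 217 CPM (Mgl2DTR), a ratio of 0.496 (0.420 to 0.585). Ifit1 was at 348 and 176 CPM (0.505, 0.419 to 0.607), and Oasl2 at 301 and 149.6 CPM (0.497, 0.406 to 0.606).

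Stat2 in cluster 26 was at 49.4 and 16.8 CPM (0.340, 0.185 to 0.601) on 44 and 18 UMIs, and Ifi27l2a at 5808 and 3667 CPM (0.631, 0.606 to 0.658) on 5170 and 3923 UMIs. Ifi204, Herc6, Ifi47, Oasl1, Usp18, Ifit2 and Ifit3b were also lower. Isg15, at 1400 and 978 CPM, did not reach the ratio of 1.5. The share of thinned cells with an IFIT UMI was 60% in WT and 52.3% in Mgl2DTR (42.4 to 62.1), with intervals that overlapped. Median depth was 4106 and 8667 UMIs per cell. Of the 12 lower calls, 8 were kept in every alternative that could be fitted for this cluster. In 1 of these, resolution 0.5, clusters 26 and 17 formed 1 cluster of 305 WT and 388 Mgl2DTR cells. That alternative does not show cluster 26 apart from the mix of the 2.

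In neutrophil-like cluster 11 (108 WT and 641 Mgl2DTR cells) 9 of 23 measured type I genes were lower and 0 higher, where 10.1% of all measured genes were lower and 5.46% higher. Isg15 was at 2763 CPM (WT) and 1542 CPM (Mgl2DTR), a ratio of 0.558 (0.506 to 0.616). Ifit2 was at 222 and 25.9 CPM (0.116, 0.0704 to 0.191) and Ifit3 at 344 and 144 CPM (0.419, 0.313 to 0.567). Rsad2 (741 and 406 CPM), Zbp1 (312 and 114 CPM), Xaf1, Rtp4, Ifit1 and Ifit3b were lower too. The summed type I level was 13380.1 and 8939.8 CPM.

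These cluster 11 values rest on few WT cells and few UMIs. Median depth was 1668.5 and 1693 UMIs per cell, and fewer than 50 WT cells reached 2000 UMIs. In WT 1 cell gave 59.3% of the 27 Ifit3b UMIs, 31.0% of the 42 Ifit2 UMIs and 23.1% of the 65 Ifit3 UMIs. Without the cell that held most UMIs of the gene, 6 of the 9 lower calls stood, and the ratio went to 0.745 for Ifit3b, 0.693 for Ifit1 and 0.700 for Rtp4, which were no longer called. Without cells that hold 2 UMIs of another class's markers 0 type I genes were lower and 2 higher of 16 measured, with Ifit1 at a ratio of 1.77 and Ifit3 at 1.31. Without cells with over 0.1% of such UMIs 2 were lower and 1 higher of 17. Monocyte markers summed to 1805 CPM (WT) and 982 CPM (Mgl2DTR), and erythroid markers to 5.29 and 2375 CPM, and their part in the result was not tested.

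In neutrophil-like cluster 17, the immature one (134 WT and 279 Mgl2DTR cells), 16 of 32 type I genes were lower and Cxcl10 higher, where 7.41% of all measured genes were lower and 5.34% higher. Isg15 was at 369 CPM (WT) and 191 CPM (Mgl2DTR) (0.517, 0.476 to 0.561), Irf7 at 141 and 63.5 CPM (0.451) and Epsti1 at 147 and 65.3 CPM (0.444). Ifi205, a gene of cDC1-like cells, was at 44.3 and 12.5 CPM (0.282). Markers of other cells were lower in Mgl2DTR as well: 11 of 12 of activated DCs (sum 885 and 369 CPM), 7 of 9 measured of cDC1 (901 and 468 CPM) and 6 of 8 of T cells.

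Cells whose neighbours carried a pair of hashtags, which can mark droplets with more than 1 cell, were 36.6% of cluster 17 in WT and 17.6% in Mgl2DTR. With those cells left out 6 type I genes were lower, and the summed type I ratio went from 0.611 to 0.729. The share of thinned cells with an IFIT UMI was 13.7% in WT and 14.1% in Mgl2DTR. Of the 16 lower calls of this cluster, 1 was kept in every alternative, that of Ifi205, the gene of cDC1-like cells.

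**Figure D5:**
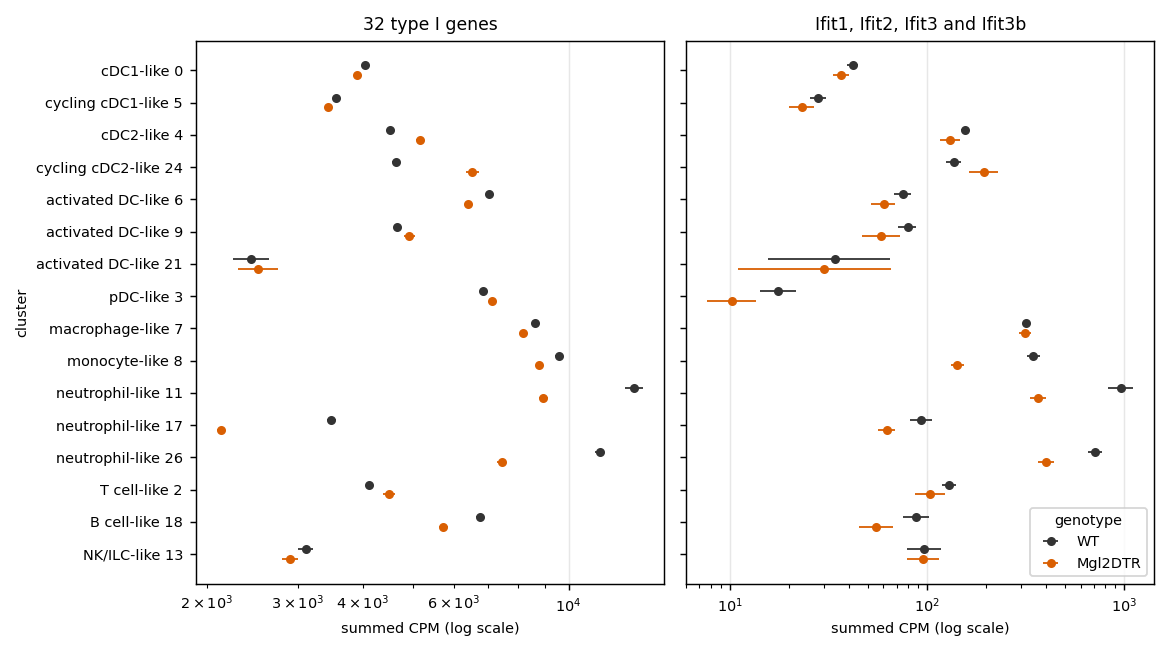
Summed CPM of the 32 type I genes (left) and of the 4 IFIT genes (right) per cluster and genotype on log axes, with exact 95% Poisson intervals. The genotypes lie farthest apart in neutrophil-like clusters 11, 17 and 26 on the left and in monocyte-like cluster 8 and neutrophil-like cluster 11 on the right (346 and 142 CPM in cluster 8).

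In cycling cDC2-like cluster 24 most calls were higher, on 235 WT and 52 Mgl2DTR cells. There 10 of 31 measured type I genes were higher and 1 lower, where 4.36% of all measured genes were higher and 4.26% lower, and the median log2 ratio was 0.50 against 0.02 for all genes. Ifi205 was at 34.9 CPM (WT) and 91.0 CPM (Mgl2DTR), a ratio of 2.61 (1.92 to 3.51). Dhx58 was at 30.3 and 67.9 CPM (2.24, 1.58 to 3.13) and Ifi203 at 230.0 and 468 CPM (2.04, 1.80 to 2.30).

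Ifih1 (39.4 and 74.7 CPM), Irf7 (183 and 284 CPM), Ifit1 (41.6 and 63.8 CPM), Herc6, Xaf1, Trim30a and Oasl2 were the other higher members of cluster 24. Cxcl10 was lower, at 55.4 and 27.2 CPM (0.490, 0.294 to 0.774). Of 22 measured type I genes that are no members, 9 were higher and 0 lower. All 11 measured T cell markers were lower (sum 798 and 97.8 CPM), and neutrophil markers summed to 241 and 641 CPM in this cluster, and the part of either was not tested. Without the cell that held most UMIs of the gene 5 of the 10 higher calls stood, and Ifit1 was at a ratio of 1.16 and Cxcl10 at 0.674. The cluster fell under 50 Mgl2DTR cells without cells near hashtag pairs, and also without cells with over 0.1% of UMIs from another class's markers, and at a coarser clustering (resolution 0.5) 1 type I gene was higher. The shares of thinned cells with an IFIT UMI were 19.2% and 23.1%, with intervals that overlapped.

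The dendritic cells that were not cycling had few calls. Cluster 4, cDC2-like, held 1034 WT and 232 Mgl2DTR cells of the class that Mgl2 marks (689 CPM in WT, 232 CPM in Mgl2DTR). There 1 of 32 type I genes was higher and 0 lower, where 2.94% of all measured genes were higher and 4.42% lower. That gene was Cxcl10, at 35.2 and 100.5 CPM (2.85, 2.41 to 3.36), and 1 cell gave 51.1% of the Mgl2DTR UMIs, without which the ratio was 1.40 and was not called. Isg15 was at 434 and 352 CPM, Ifit3 at 53.0 CPM in both, and the share of thinned cells with an IFIT UMI was 16.5% (14.3 to 18.9) and 15.7% (11.3 to 21.1). The summed type I ratio was 1.14 (1.12 to 1.16).

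In cDC1-like cluster 0 Ifit1 alone was lower, 1 of 31 measured type I genes (1.68% of all measured genes were lower and 1.42% higher), at 3.47 and 2.03 CPM. Isg15 was at 417 and 363 CPM there and Ifi205 at 470 and 551 CPM, neither past the ratio of 1.5. In cycling cDC1-like cluster 5 Cxcl10 was the 1 higher of 29 (1.73% of all measured genes were higher and 1.53% lower), at 12.8 and 29.6 CPM, but 1 cell gave 62.3% of its Mgl2DTR UMIs. The ratio was 0.879 without that cell, and 0.868 without cells with over 0.1% of another class's markers.

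Activated DC-like cells, which carry Ccr7 and migrate to present antigen, likewise had few calls. In cluster 6 Cxcl10 was the 1 higher of 29 type I genes (4.29% of all measured genes were higher and 0.876% lower), at 10.7 and 31.3 CPM (2.91, 2.08 to 4.13), while Epsti1 was at 2426 and 2606 CPM. In cluster 9 Ifi205 (10.7 and 22.0 CPM) and Dhx58 (14.9 and 24.9 CPM) were higher of 30, where 5.93% of all measured genes were higher. Ifit3 was lower there (90 and 15 UMIs, ratio 0.550), where 1.27% of all measured genes were lower. Without the cell that held most UMIs of the gene none of these was called, at ratios of 1.53 for Ifi205, 1.48 for Dhx58 and 0.650 for Ifit3. In the shallow cluster 21 5 type I genes could be measured, with 0 called, where 14.2% of all measured genes were higher and 4.61% lower.

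In pDC-like cluster 3, whose known role is to make type I interferon in bulk, Rsad2 was lower at 12.6 and 5.34 CPM (0.425, 0.261 to 0.674) and Dhx58 higher at 9.0 and 14.05 CPM, of 25 measured type I genes. Of all measured genes 1.79% were lower and 1.44% higher there. The 4 IFIT genes together were at 17.6 and 10.3 CPM (0.584, 0.408 to 0.828), while Bst2 was at 4178 and 4411 CPM and Irf7 at 180 and 189 CPM. In macrophage-like cluster 7 0 of 32 type I genes were called, where 5.79% of all measured genes were higher and 2.52% lower. Isg15 there was at 687 and 686 CPM, Ifit3 at 102 and 91.3 CPM, and the IFIT genes together at 319 and 314 CPM (0.986, 0.905 to 1.07).

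Among lymphoid clusters the B cell-like cluster 18 had 5 type I genes lower and 1 higher of 27, where 3.62% of all measured genes were lower and 5.49% higher. Isg15 was at 326 CPM (WT) and 193 CPM (Mgl2DTR) (0.591, 0.517 to 0.674), and Ifit1 at 28.0 and 14.4 CPM. Usp18, Ifih1 and Phf11b were the other 3 lower, and Ifi44 was higher at 14.2 and 24.9 CPM. Without the cell of most UMIs these 4 were not called, and Ifih1 was at a ratio of 0.934. T cell-like cluster 2 had Ifi205 (10.2 and 3.87 CPM) and Dhx58 (25.0 and 12.4 CPM) lower of 28, where 2.69% of all measured genes were lower and 2.31% higher. NK or innate lymphoid-like cluster 13 had Parp14 (78.3 and 44.8 CPM) and Ifi47 (143 and 89.6 CPM) lower of 21, where 2.91% were lower and 4.23% higher.

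The 4 GTPases were called lower in 5 of 46 measured pairs with a cluster and higher in 1. Over all genes 3.64% of such pairs were lower and 4.18% higher, and the shares for each cluster are given above. Gbp2 was lower in cDC2-like cells, at 9.99 CPM (WT) and 2.59 CPM (Mgl2DTR) (0.259, 0.0930 to 0.582) on 110 and 6 UMIs, and in neutrophil-like cluster 26, at 46.1 and 18.7 CPM (0.406, 0.225 to 0.709). Gbp3 was lower in pDC-like cells (10.9 and 6.73 CPM), and Igtp in cluster 17 (14.9 and 8.01 CPM) and in B cell-like cells (32.1 and 19.3 CPM). Igtp was higher in activated DC-like cluster 6, at 4.97 and 10.8 CPM (2.18, 1.27 to 3.79). Irgm1 was called in 0 of 15 clusters. In monocyte-like cells, where 14 type I genes were lower, 0 of the 4 GTPases were called, and Gbp2 was at 43.1 and 29.1 CPM and Igtp at 34.3 and 32.3 CPM. The summed GTPase ratio there was 0.785 (0.685 to 0.900), below the summed type I ratio of 0.915. With median-of-ratios scaling, thinning, clusters built with the interferon genes or resolution 0.5, 1 GTPase was called lower in this cluster.

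Of the interferons themselves 4 of 21 listed genes had counts in the table. Ifng was at 127 CPM (WT) and 100.2 CPM (Mgl2DTR) in NK or innate lymphoid-like cells, and was not called. Over the compared clusters Ifnb1 had 1 UMI in WT and 0 in Mgl2DTR, Ifnk 0 and 1, and Ifnl2 3 and 0. Ifnb1, Ifnk and Ifnl2 were thus not detectable as levels in either genotype at this depth. The other listed ligands, the Ifna genes among them, were not among the genes counted, and their levels are unknown.

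The receptor genes were detected in the clusters with low and with high response. Ifnar2, a chain of the type I receptor, was at 364 CPM (WT) and 369 CPM (Mgl2DTR) in pDC-like cells, 314 and 272 CPM in macrophage-like, 179 and 153 CPM in monocyte-like and 68.9 and 75.8 CPM in cDC1-like cells. Its partner chain Ifnar1 was at 173 and 163 CPM in pDC-like and 68.6 and 57.9 CPM in monocyte-like cells. In neutrophil-like cluster 11 Ifnar2 was lower, at 180.0 and 113 CPM. Among the 16 compared clusters, pDC-like cells had the highest level of each chain in WT and in Mgl2DTR cells.

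Of the signalling factors, Irf9 was lower in cluster 17 only among the 16 clusters, at 55.1 and 33.7 CPM. Irf8, a factor of cDC1 and pDC identity, was at 1319 and 1350.1 CPM in cDC1-like cells and 2475 and 2470.0 CPM in pDC-like cells. The type I genes that are no members were lower for 6 of 23 measured in monocyte-like cells, 5 of 13 in cluster 11, 6 of 20 in cluster 17 and 4 of 17 in cluster 26, with 0 higher in these 4 clusters. Of other interferon-gamma genes, Ciita (166 and 46.5 CPM) and Cxcl9 (86.8 and 30.6 CPM) were lower of 6 measured in monocyte-like cells.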

How the data were processed

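Gene expression and hashtag libraries of 1 droplet pool were read from the authors' deposited tables. The submitters' processing notes name Cell Ranger 6.0.0, Seurat 4.0.4 and the build mm10. The gene annotation used is not given in the sources read here. The deposited gene and hashtag tables hold raw counts, whole UMIs per feature and cell, for 20451 genes and 28926 cells. The deposited annotation gives the hashtag call of each cell and, per the file headers, a score (the margin between its hashtags), which was not used. The 2 gene tables shared 0 cell barcodes, and their totals were equal to those of the annotation in every cell. Genotype was the hashtag call. Cells with a pair of hashtags (9829, 34.0%) or none (78) were left out of every comparison, and doublets within a genotype were not called. Cells near hashtag pairs (18.8% of WT and 18.1% of Mgl2DTR cells) stayed in and were left out in an alternative.

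Clusters were built on all 28926 cells with leidenalg 0.10.2 (igraph 0.11.9, scikit-learn 1.9.0, pandas 2.3.3, scipy 1.17.1, numpy 2.4.6, Python 3.11.15, figures with matplotlib 3.10.9) at resolution 1 and seed 1, without 114 interferon-related genes and Mgl2. Of 37 clusters 16 were compared. Names come from marker lists alone and end in "-like", and clusters made mostly of hashtag pairs stayed unnamed. CPM carries exact Poisson intervals, shares exact binomial intervals and ratios exact conditional intervals. No test was made, since each genotype is 1 library. The scripts were tested on simulated data. The members, marker lists, pathway lists and alternatives were chosen with earlier results of these data known. In each cluster the text names the members past the call rule, and of the pathway lists those past it with the ligands, receptors and factors, apart from an item that is not reported here. Alternatives left out cells, changed the scaling, the weight of cells, the depth, the clustering and the minimum count.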

Additional observations from a re-analysis of the deposited data

Results flagged for a closer look

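For 11 members the call was higher in Mgl2DTR in 1 cluster and lower in another, and each difference below is the larger log2 ratio minus the smaller. None of these differences was tested, since each rests on 1 library per genotype. The share of all genes called both ways was not counted. Cycling cDC2-like cluster 24, with 52 Mgl2DTR cells, gave the higher ratio for 8 of the 11. There 5 of the 10 higher type I calls stood without the cell of most UMIs. At resolution 0.5 the matching cluster had 1 type I gene higher, and Ifit1 was at 0.967. Against neutrophil-like cluster 26 the difference was 1.61 for Ifit1 (ratios 1.54 and 0.505), 1.61 for Oasl2 (1.52 and 0.497) and 1.90 for Herc6 (1.65 and 0.441). Against neutrophil-like cluster 17 it was 1.78 for Irf7 (1.55 and 0.451) and 3.21 for Ifi205 (2.61 and 0.282). For Xaf1 it was 2.00, against neutrophil-like cluster 11. For the RNA sensors it was 1.59 for Ifih1, against B cell-like cells, and 2.17 for Dhx58, against T cell-like cells.

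The other 3 members had their higher ratio elsewhere. Cxcl10 differed by 2.57 between activated DC-like cluster 6 (2.91) and cycling cDC2-like cluster 24 (0.490), and Igtp by 2.02 between activated DC-like cluster 6 (2.18) and neutrophil-like cluster 17 (0.538). Ifi44 differed by 1.81 between B cell-like cells (1.74) and monocyte-like cells (0.498), on 28 to 63 UMIs per genotype and cluster. The call of Cxcl10 in cluster 24 and that of Ifi44 in B cell-like cells were lost without the cell of most UMIs.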

How the results depend on the processing

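No paired analysis was possible because the labels name no replicates and each genotype is 1 library. Of the summed ratios, counts of calls, spreads and motif shares, 174 kept their result. This means the same direction and side of the threshold, or a value within the range that counts as unmoved. A further 16 moved, 2 became called and 7 lost their call. A changed minimum count cannot alter a summed ratio or its interval. The spreads were compared between cells thinned to 2000 and to 4000 UMIs. Their measure is built not to move with depth, so those comparisons could hardly have changed. The 64 lower and 18 higher type I calls became 3 and 6 over 6 clusters without cells with 2 UMIs of another class's markers, 24 and 8 with cells thinned to 2000 UMIs, and 40 and 11 with at least 200 summed counts. Higher calls were 8 without cells near hashtag pairs and 9 without cells with over 0.1% of UMIs from another class's markers, an alternative chosen after seeing the data. The 5 lower GTPase calls became 0, 3, 2, 8 and 0 with, in turn, the 2 UMI rule, the 0.1% rule, thinning, resolution 0.5 and 200 counts, and the 1 higher call 0 with the last 2 of these. The share of all genes with a response-element match was 0.944% for the longer motif.

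The summed type I ratio of cluster 11 passed 1.5-fold without cells near hashtag pairs (0.666) and without the member of most counts (0.626). That of cluster 17 lost its call without cells near hashtag pairs (0.729), with each cell given equal weight (0.789) and when thinned (0.807), and that of cluster 26 with median-of-ratios scaling (0.712), equal weight (0.751), thinning (0.722) and clusters built with the interferon genes (0.669).

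For the 88 calls of single members, 619 values under an alternative kept the call, 140 lost it and 14 changed direction. Of the 619, 88 with no minimum count and 51 with at least 200 counts could only keep the call. The ratio and its interval stay the same there. Of the 88 calls, 64 were lost without a change of direction under at least 1 alternative. Most calls were lost with equal weight (29), without the cell that held most UMIs of the gene (26, an alternative chosen after seeing the data) and under the 0.1% rule (24). The changes of direction are as follows. Under the 0.1% rule the ratio of Cxcl10 was 0.868 in cluster 5, 2.08 in cluster 8 and 0.618 in cluster 17, and that of Ifit1 1.24 in cluster 11. Under the 2 UMI rule cluster 11 had 1.77 for Ifit1, 1.31 for Ifit3 and 1.04 for Rtp4. Without the cell of most UMIs Cxcl10 was at 0.879 in cluster 5. With equal weight Cxcl10 was at 0.829 in cluster 17. At resolution 0.5 Ifit1 was at 0.967 in cluster 24 and Igtp at 0.927 in cluster 6. With the interferon genes kept in the clustering Ifi44 was at 1.09 in cluster 8. In cluster 17 Rtp4 was at 1.02 when thinned, and Phf11b at 2.07 without cells near hashtag pairs. The cause was not tested in any of these. Depth limits cluster 21, where 5 type I genes reached 50 UMIs, and the WT cells of cluster 11.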
